A study of Mus musculus with 9 samples.

Results

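The genes described here are Acod1 and 8 enzymes of the tricarboxylic acid (TCA) cycle, Cs, Idh1, Idh2, Idh3a, Ogdh, Sdha, Sdhb and Mdh2, measured in bone marrow-derived macrophages. Members were the probe sets that the platform annotation assigned to a single one of these symbols. This gave 21 probe sets for 9 genes, of 45037 probe sets and 18193 named genes on the array. Each gene is given by its brightest probe set over the 9 arrays. The other probe sets of the 9 members are given beside it, and those of other named genes in part.

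There were 3 groups of 3 arrays. In TNC + TLR4i, cells received 3 µM TAK-242, a small molecule inhibitor of Toll-like receptor 4 (TLR4), for 1 h and then 2 µg/ml of the extracellular matrix protein tenascin C (TNC) for 6 h. In TNC + vehicle, cells received 0.1% DMSO for 1 h before the same TNC treatment. Untreated cells received neither TNC nor inhibitor according to the labels, and whether they received DMSO is not stated. In all groups, marrow came from BALB/c mice of 8 to 10 weeks, was cultured for 7 days with M-CSF, and was kept overnight in 1% serum. No group held DMSO alone or TAK-242 alone, so TNC and DMSO cannot be told apart in one contrast, nor TNC and TAK-242 in another. The labels call the arrays biological replicates and do not tie them to separate mice, so p-values measure the spread between these arrays.

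The TCA cycle joins acetyl-CoA to oxaloacetate as citrate and oxidises it stepwise in the mitochondrion, feeding electrons to the respiratory chain. ACOD1, also known as IRG1, removes a carboxyl group from cis-aconitate, an intermediate between citrate and isocitrate, and so makes itaconate. Macrophages are known for high Acod1 expression after exposure to bacterial lipopolysaccharide, and itaconate competes with succinate at succinate dehydrogenase. Isocitrate dehydrogenase and succinate dehydrogenase are often discussed as places where the cycle of inflammatory macrophages is interrupted.

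Upstream windows of 250 bases were available from RefSeq (GRCm38.p6) for 8 of the 9 genes. Those of Acod1, Idh1 and Idh2 are shown because their brightest probe sets differed in the comparisons with TNC + vehicle. Each runs 5′ to 3′ and ends at the base before an annotated start. Idh1 has a pair of annotated starts. Capitals mark matches to the searched motifs.

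Acod1 (chr14:103046762-103047011, plus strand): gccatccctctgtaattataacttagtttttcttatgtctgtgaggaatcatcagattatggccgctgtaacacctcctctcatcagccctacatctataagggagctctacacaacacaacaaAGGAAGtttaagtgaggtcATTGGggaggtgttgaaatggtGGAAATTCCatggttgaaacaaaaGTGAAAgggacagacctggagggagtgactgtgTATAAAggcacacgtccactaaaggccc

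Idh1, outer start (chr1:65186480-65186729, minus strand): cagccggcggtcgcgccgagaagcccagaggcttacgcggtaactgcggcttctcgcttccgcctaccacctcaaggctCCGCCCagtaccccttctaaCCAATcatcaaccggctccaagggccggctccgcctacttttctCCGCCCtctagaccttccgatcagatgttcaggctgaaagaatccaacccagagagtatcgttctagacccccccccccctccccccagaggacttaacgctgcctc

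Idh1, inner start (chr1:65179143-65179392, minus strand): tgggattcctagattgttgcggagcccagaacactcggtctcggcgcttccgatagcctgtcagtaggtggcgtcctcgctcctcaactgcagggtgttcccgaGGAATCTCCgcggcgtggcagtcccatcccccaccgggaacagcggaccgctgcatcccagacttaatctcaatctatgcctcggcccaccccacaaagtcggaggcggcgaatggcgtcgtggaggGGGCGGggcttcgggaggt

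Idh2 (chr7:80115351-80115600, minus strand): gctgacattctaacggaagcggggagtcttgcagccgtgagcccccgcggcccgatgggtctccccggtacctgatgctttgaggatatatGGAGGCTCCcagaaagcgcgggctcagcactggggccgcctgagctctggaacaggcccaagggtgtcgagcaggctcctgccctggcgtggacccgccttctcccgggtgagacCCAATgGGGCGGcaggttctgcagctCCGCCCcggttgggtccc

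The search covered 10 motifs, on both strands except the TATA box (sense strand). In the Acod1 window, TATAAA lay at -28 to -23, GTGAAA, the interferon regulatory factor half-site, at -61 to -56, and GGANNNTCC, a palindromic form of the NF-kB site, at -85 to -77. An ETS core, AGGAAG, lay at -126 to -121 and a CCAAT box, read on the other strand, at -107 to -103. TATAAA was held by 7.59% of all 32851 windows of this length, GTGAAA by 11.1%, GGANNNTCC by 7.27%, AGGAAG by 29.5% and CCAAT by 33.8%.

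Of the 8 genes with windows, Acod1 was the one with TATAAA and the one with GTGAAA. GGANNNTCC was also found in the inner Idh1 window, at -146 to -138, and in Idh2, at -159 to -151. The GC box, GGGCGG, was in windows of 6 of the 8 genes (Cs, Idh1, Idh2, Ogdh, Sdhb and Mdh2). Counted by window, since Ogdh and Idh1 have several, it was in 8 of 14 member windows and in 32.7% of all windows. TGACGTCA, the CREB site, was in 4 of the 14 member windows, those of Mdh2 and overlapping ones of Ogdh, and in 1.55% of all windows. No member window held TTCNNNGAA (STAT, 7.02% of all), TGANTCA (AP-1, 6.75%) or GAAANNGAAA (ISRE, 2.98%), whose letters can overlap those of the half-site GTGAAA. The Acod1 window had a GC content of 44.4% and 2 CpG, against 61.6% and 18 for outer Idh1 and 67.2% and 17 for Idh2, with medians of 52.4% and 6 over all windows. These motifs were chosen after the windows had been seen, and a match is a description of letters.

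The values are log2 signals normalised by robust multiarray averaging (RMA), on which a difference of 1 is a doubling. Array medians lay between 6.72 and 6.74. The 10 macrophage markers had medians of 12.84 to 12.95 on all arrays. Their summed linear signals were 86270 to 88280 in TNC + TLR4i, 94540 to 99440 in TNC + vehicle and 90360 to 90690 in untreated. The sum over 12 endothelial markers was 1368 to 1404 in TNC + TLR4i, 1941 to 2476 in TNC + vehicle and 1400 to 1468 in untreated, and its highest value belonged to TNC + vehicle replicate 1. Of these 12 markers, 2 were higher and 0 lower with TNC (limma), near the 12.1% of all genes that were higher. The sums of fibroblast, neutrophil and lymphocyte markers overlapped between all groups. The fibroblast sum, 13980 to 18140 over the arrays, was far above the endothelial one. The 3′ minus 5′ signal of the actin control was 0.30 to 0.37 in TNC + TLR4i, 0.20 to 0.22 in TNC + vehicle and 0.29 to 0.32 in untreated. The part of these differences in the results was not tested, and in bulk RNA fewer cells of a type and less RNA per cell cannot be told apart.

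Acod1 was the gene with the largest difference on the array both with TNC and with the inhibitor. Its signal (probe set 1427381_at, the single one) was 7.12, 7.08 and 6.99 in TNC + TLR4i, 13.44, 13.57 and 13.39 in TNC + vehicle, and 7.11, 7.76 and 7.52 in untreated cells. The TNC + vehicle arrays lay far above all others, at a distance of at least 5.64 on the log2 scale, whereas the TNC + TLR4i and untreated arrays overlapped.

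**Figure D1:**
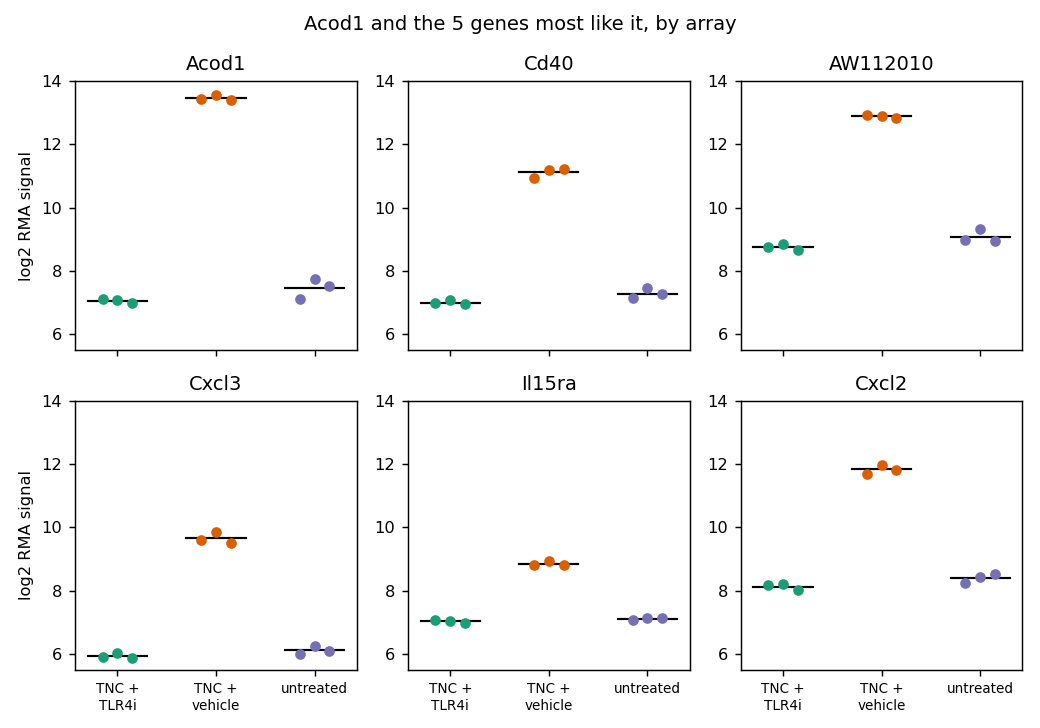
Log2 RMA signal (y axis) of Acod1 and of the 5 genes whose signal followed it most closely, with a point for each array and a line at the group mean of 3 arrays. Acod1 stood between 13.39 and 13.57 in TNC + vehicle and at or below 7.76 on the other 6 arrays, and the 5 other genes showed the same separation of TNC + vehicle with smaller differences.

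Acod1 averaged 13.47 ± 0.091 in TNC + vehicle and 7.46 ± 0.33 in untreated cells (SD, n = 3 each), a difference of 6.01 (SE 0.13), or 64.4-fold, ranking 1 of 18193 genes (limma, adjusted p = 2.15e-10). It averaged 7.06 ± 0.066 in TNC + TLR4i and 13.47 ± 0.091 in TNC + vehicle (SD, n = 3 each), a difference of -6.41 (SE 0.07), or 84.8-fold lower, which again ranked 1 (limma, adjusted p = 2.81e-13). RMA leaves a floor under dim signals, so these folds may understate the change. Without TNC + vehicle replicate 1 the differences were 6.02 and -6.42.

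Between TNC + TLR4i and untreated cells, Acod1 averaged 7.06 and 7.46, a difference of -0.40 with a 95% interval of -0.67 to -0.13 before correction for multiple testing (limma, adjusted p = 0.34). The lowest untreated array, replicate 1 at 7.11, lay within the range of TNC + TLR4i, and the other 2 untreated arrays lay above it. Without untreated replicate 1 the difference was -0.57 with an adjusted p of 0.0182 (limma), so whether this comparison passed depended on that array.

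The 5 genes most like Acod1 over the 9 arrays, by Pearson's r of brightest probe sets among 609 genes whose group means ranged over at least 1, were Cd40 (r = 0.9990), AW112010 (0.9989), Cxcl3 (0.9988), Il15ra (0.9987) and Cxcl2 (0.9987). Cd40 encodes a costimulatory receptor, Il15ra the receptor subunit that presents interleukin 15, and Cxcl2 and Cxcl3 neutrophil-attracting chemokines. Since the TNC + vehicle arrays stood apart from the other 6, r describes this separation above all. Group means of Cd40 were 7.01 in TNC + TLR4i, 11.11 in TNC + vehicle and 7.29 in untreated, and those of Il15ra were 7.02, 8.85 and 7.10.

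The 8 cycle enzymes differed far less than Acod1. With TNC, Idh3a rose and Idh1 and Idh2 fell, by their brightest probe sets, and Cs, Ogdh, Sdha, Sdhb and Mdh2 did not pass an adjusted p of 0.05. The same 3 enzymes differed in the opposite direction between TNC + TLR4i and TNC + vehicle, comparisons which share the TNC + vehicle arrays. None of the 8 reached 1.5-fold in any comparison.

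Counted over the 9 members at an adjusted p under 0.05 (limma, Benjamini-Hochberg over all probe sets), 2 were higher and 2 lower in TNC + vehicle than in untreated cells. Of all genes, 12.1% were higher and 16.0% lower. Requiring 1.5-fold as well left Acod1 as 1 higher and 0 lower members, where 3.74% of all genes were higher and 4.05% lower. In TNC + TLR4i against TNC + vehicle, 2 members were higher and 2 lower, with 17.1% and 11.4% of all genes. With 1.5-fold, 0 were higher and 1 was lower, with 4.25% and 4.05% of all genes. In TNC + TLR4i against untreated, 0 members passed in either direction (limma), where 0.297% of genes were higher and 0.506% lower, and 0.0605% and 0.198% with 1.5-fold. At an unadjusted p under 0.05, 1 member differed there, Acod1.

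**Figure D2:**
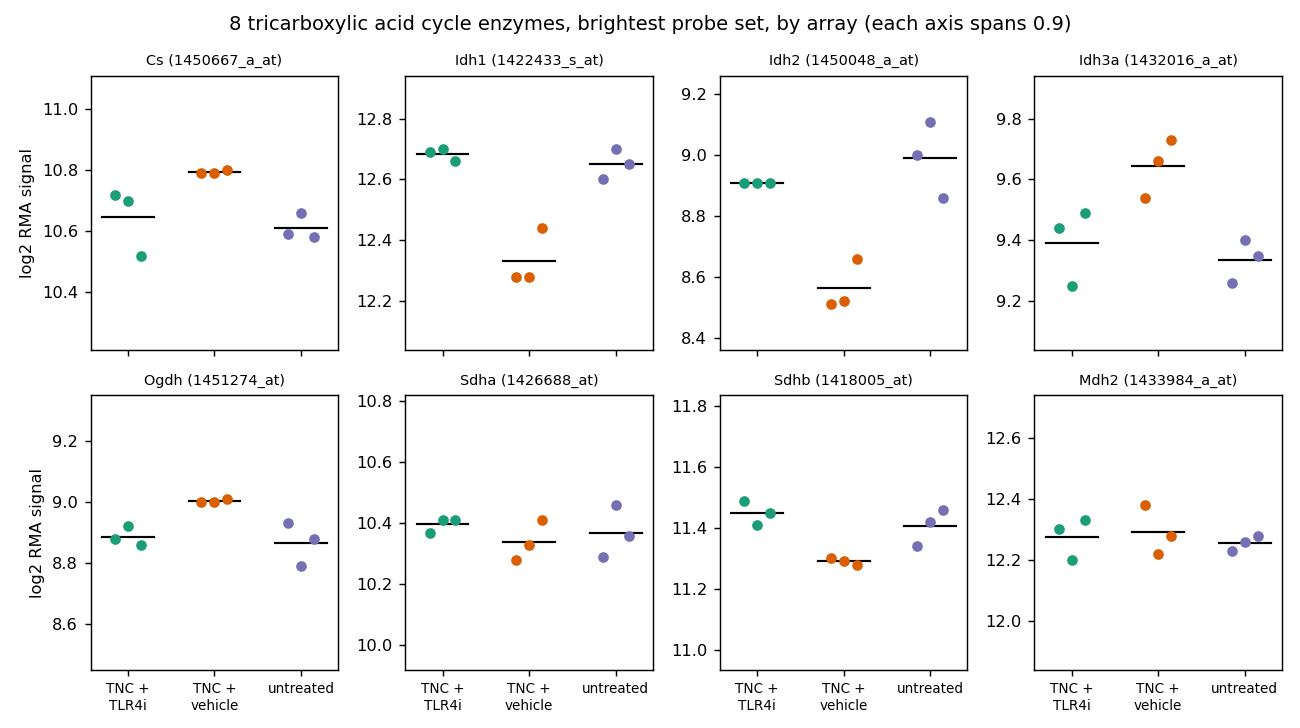
Log2 RMA signal (y axis, each panel spanning 0.9) of the brightest probe set of each of the 8 cycle enzymes, with a point for each array and a line at the mean of 3 arrays. Idh1 and Idh2 were lowest in all 3 TNC + vehicle arrays and Idh3a was highest there, while Sdha and Mdh2 overlapped between groups.

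Citrate synthase, Cs, makes citrate from acetyl-CoA and oxaloacetate and so opens the cycle. Its signal (1450667_a_at) was 10.72, 10.70 and 10.52 in TNC + TLR4i, 10.79, 10.79 and 10.80 in TNC + vehicle, and 10.59, 10.66 and 10.58 in untreated cells. All 3 TNC + vehicle arrays lay above the other groups, by at least 0.07. The difference from untreated was 0.18 (SE 0.06, limma adjusted p = 0.0597), and 0.19 and 0.22 for its other probe sets, of which the dimmer, 1422577_at, passed (limma, adjusted p = 0.0376). Cs passed with cyclic loess (0.26, limma adjusted p = 0.01), with dim probe sets left out (0.0281) and with trend and robust settings (0.0157). It also passed with means of probe sets (0.20, limma adjusted p = 0.0124). Against TNC + vehicle, TNC + TLR4i differed by -0.15 (SE 0.07, limma adjusted p = 0.19). This passed with cyclic loess (-0.25, limma adjusted p = 0.0309) and with means of probe sets (-0.16, 0.0456), and was -0.08 without TNC + TLR4i replicate 3.

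The isocitrate dehydrogenases comprise the NAD-dependent mitochondrial IDH3 complex, of which Idh3a encodes the catalytic subunit, and the NADP-dependent enzymes IDH1 of the cytosol and IDH2 of the mitochondrion. Idh1 (1422433_s_at) had 12.69, 12.70 and 12.66 in TNC + TLR4i, 12.28, 12.28 and 12.44 in TNC + vehicle, and 12.60, 12.70 and 12.65 in untreated cells. All TNC + vehicle arrays lay below every other array.

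The difference of Idh1 was -0.32 (SE 0.07) for TNC + vehicle against untreated and 0.35 (SE 0.07) for TNC + TLR4i against TNC + vehicle (limma, adjusted p = 0.00654 and 0.00286). Its other probe set, 1419821_s_at, moved the same way, by -0.44 and 0.46 (limma, adjusted p = 0.000299 and 0.00049). Among bright genes, the tenth of genes with the highest signal had a median difference of -0.09 with TNC and 0.10 with the inhibitor. With cyclic loess, which brought these medians to 0.00 and -0.01, the Idh1 differences were -0.22 (limma, adjusted p = 0.0524) and 0.24 (0.0315).

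Idh2 was measured by a pair of probe sets that went opposite ways. The brighter, 1450048_a_at, had 8.91 on all 3 TNC + TLR4i arrays, 8.51, 8.52 and 8.66 in TNC + vehicle, and 9.0, 9.11 and 8.86 in untreated cells. The dimmer, 1453601_at, had 7.46, 7.26 and 7.44 in TNC + TLR4i, 7.60, 7.73 and 7.68 in TNC + vehicle, and 7.21, 7.51 and 7.27 in untreated cells. TNC + vehicle was thus lowest by the first and highest by the second, without overlap in either case.

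The brighter Idh2 probe set differed by -0.43 (SE 0.08) with TNC and 0.35 (SE 0.07) with the inhibitor (limma, adjusted p = 0.00219 and 0.00269), and the dimmer by 0.34 and -0.28 (limma, adjusted p = 0.0123 and 0.0172). Within an array, the dimmer minus the brighter averaged -1.52 in TNC + TLR4i, -0.89 in TNC + vehicle and -1.66 in untreated. With the mean of both probe sets, Idh2 differed by -0.04 with TNC (limma, adjusted p = 0.711) and 0.03 with the inhibitor (0.728), so a direction for the gene rests on the choice of probe set.

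Idh3a (1432016_a_at) had 9.44, 9.25 and 9.49 in TNC + TLR4i, 9.54, 9.66 and 9.73 in TNC + vehicle, and 9.26, 9.40 and 9.35 in untreated cells. The TNC + vehicle arrays lay above all others, by 0.05 at the closest. The difference was 0.31 (SE 0.07) with TNC and -0.25 (SE 0.08) with the inhibitor (limma, adjusted p = 0.0102 and 0.0474).

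All 4 probe sets of Idh3a had higher means in TNC + vehicle than in untreated, by 0.17 to 0.31, and 2 of them passed (1432016_a_at and 1422501_s_at). All 4 had lower means in TNC + TLR4i than in TNC + vehicle, by -0.29 to -0.10, and 3 passed. The call with TNC was lost without untreated replicate 1 (0.27, limma adjusted p = 0.0557). With the inhibitor, the adjusted p exceeded 0.05 when either TNC + vehicle replicate 2 or 3 or TNC + TLR4i replicate 1 or 2 was left out, with differences of -0.28 to -0.18.

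**Figure D3:**
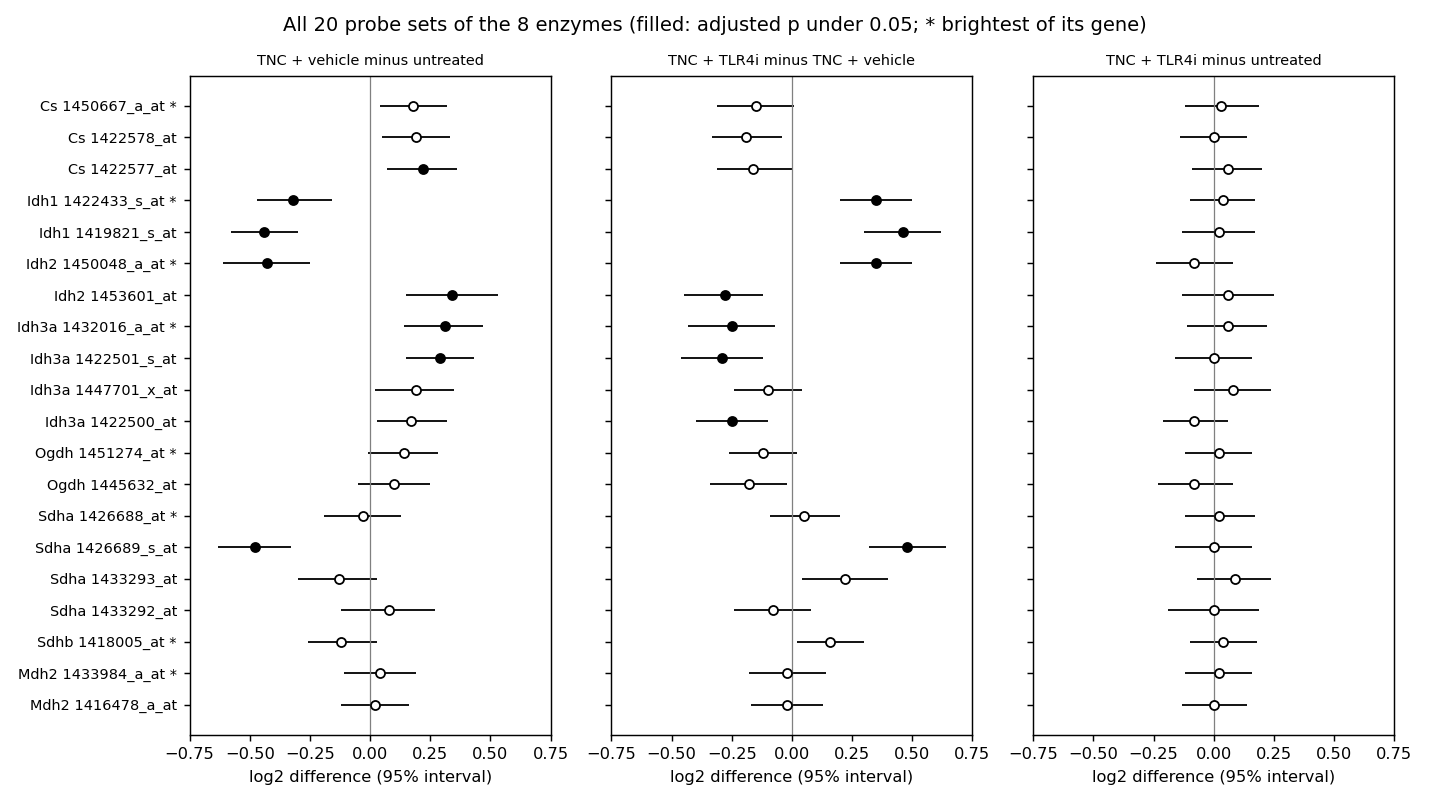
Log2 difference (x axis) with its 95% interval before correction for each of the 20 probe sets of the 8 enzymes, in 3 comparisons; filled points have a limma adjusted p under 0.05. The probe sets of Idh2 and of Sdha disagree within a gene, those of Idh1 and Idh3a share a direction, and no probe set is filled in TNC + TLR4i against untreated.

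Ogdh encodes the subunit of the oxoglutarate dehydrogenase complex that decarboxylates 2-oxoglutarate. Its signal (1451274_at) was 8.88, 8.92 and 8.86 in TNC + TLR4i, 9.0, 9.0 and 9.01 in TNC + vehicle, and 8.93, 8.79 and 8.88 in untreated cells. TNC + vehicle lay slightly above both other groups without overlap. The difference was 0.14 with TNC (95% interval before correction -0.01 to 0.28, limma adjusted p = 0.176) and -0.12 with the inhibitor (-0.26 to 0.02, 0.227), so neither passed. Its dimmer probe set, 1445632_at, differed by 0.10 with TNC, where the groups overlapped, and by -0.18 with the inhibitor (limma, adjusted p = 0.343 and 0.102).

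Sdha and Sdhb encode the flavoprotein and the iron-sulphur subunit of succinate dehydrogenase, which oxidises succinate and is also complex II of the respiratory chain. For Sdha, the brightest probe set, 1426688_at, had 10.37, 10.41 and 10.41 in TNC + TLR4i, 10.28, 10.33 and 10.41 in TNC + vehicle, and 10.29, 10.46 and 10.36 in untreated cells. These groups overlapped. The next, 1426689_s_at, of nearly the same mean signal, had 10.39, 10.44 and 10.61 in TNC + TLR4i, 10.03, 10.00 and 9.98 in TNC + vehicle, and 10.54, 10.51 and 10.40 in untreated cells.

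The second Sdha probe set fell with TNC by 0.48 on the log2 scale (SE 0.07, limma adjusted p = 0.000236) and differed by 0.48 with the inhibitor (0.000429), while the first differed by -0.03 (95% interval before correction -0.19 to 0.13, limma adjusted p = 0.821) and 0.05 (0.642). The sign of the first turned under cyclic loess, to 0.04 and -0.04. The second minus the first within an array lay between 0.03 and 0.20 in TNC + TLR4i, between -0.43 and -0.25 in TNC + vehicle and between 0.04 and 0.25 in untreated. The other 2 Sdha probe sets, with means of 6.46 and 6.14, were below the array medians and did not pass. With the mean of all its probe sets, Sdha differed by -0.14 with TNC (limma, adjusted p = 0.0892) and 0.17 with the inhibitor (0.0453). Which probe set follows the gene's RNA was not tested.

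Sdhb (1418005_at) had 11.49, 11.41 and 11.45 in TNC + TLR4i, 11.30, 11.29 and 11.28 in TNC + vehicle, and 11.34, 11.42 and 11.46 in untreated cells. TNC + vehicle was lowest without overlap, by at least 0.04. The difference was -0.12 with TNC (limma, adjusted p = 0.248) and 0.16 with the inhibitor (0.105). The second passed with dim probe sets left out (0.16, limma adjusted p = 0.0493), with trend and robust settings (0.0233) and with means of probe sets (0.0367). With cyclic loess it was 0.06 (limma, adjusted p = 0.622).

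Mdh2, the mitochondrial malate dehydrogenase that closes the cycle by remaking oxaloacetate, had 12.30, 12.20 and 12.33 in TNC + TLR4i, 12.38, 12.22 and 12.28 in TNC + vehicle, and 12.23, 12.26 and 12.28 in untreated cells (1433984_a_at). The 3 groups overlapped. The difference with TNC was 0.04 (95% interval before correction -0.11 to 0.19, limma adjusted p = 0.745) and that with the inhibitor -0.02 (-0.18 to 0.14, 0.902). Its second probe set, 1416478_a_at, differed by 0.02 and -0.02.

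In TNC + TLR4i against untreated cells, the 8 enzymes differed by -0.08 (Idh2) to 0.06 (Idh3a), and all 20 of their probe sets had adjusted p of 0.826 or more (limma). The 95% intervals before correction stayed within -0.24 and 0.22 for the brightest probe sets, so differences inside that span could not be resolved with 3 arrays a group.

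The rest of the cycle was read from 11 measured genes of a list of 12 other subunits. With TNC, 0 were higher, 5 were lower and 6 did not pass (limma), with a list median of -0.19. The median was 0.01 over all genes and -0.09 over the tenth of genes with the highest signal. Of the 5 lower subunits, Fh1 and Idh3g were called at 1.5-fold. Together with the 8 enzymes this made 19 cycle subunits, of which 1 was higher and 7 lower with TNC, 7 higher and 1 lower with the inhibitor, and 0 in TNC + TLR4i against untreated. The 19 included Idh1 and Mdh1, whose enzymes are cytosolic, and the NADP-dependent Idh2. Each of these was among those lower with TNC and higher with the inhibitor, Idh2 by its brighter probe set. Over all genes, 12.1% were higher and 16.0% lower with TNC, and 17.1% and 11.4% with the inhibitor. The imbalance over all genes thus had the same directions but was milder. The counts were unchanged without TNC + vehicle replicate 1. With cyclic loess, 3 were higher and 5 lower with TNC, and 7 higher and 2 lower with the inhibitor.

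**Figure D4:**
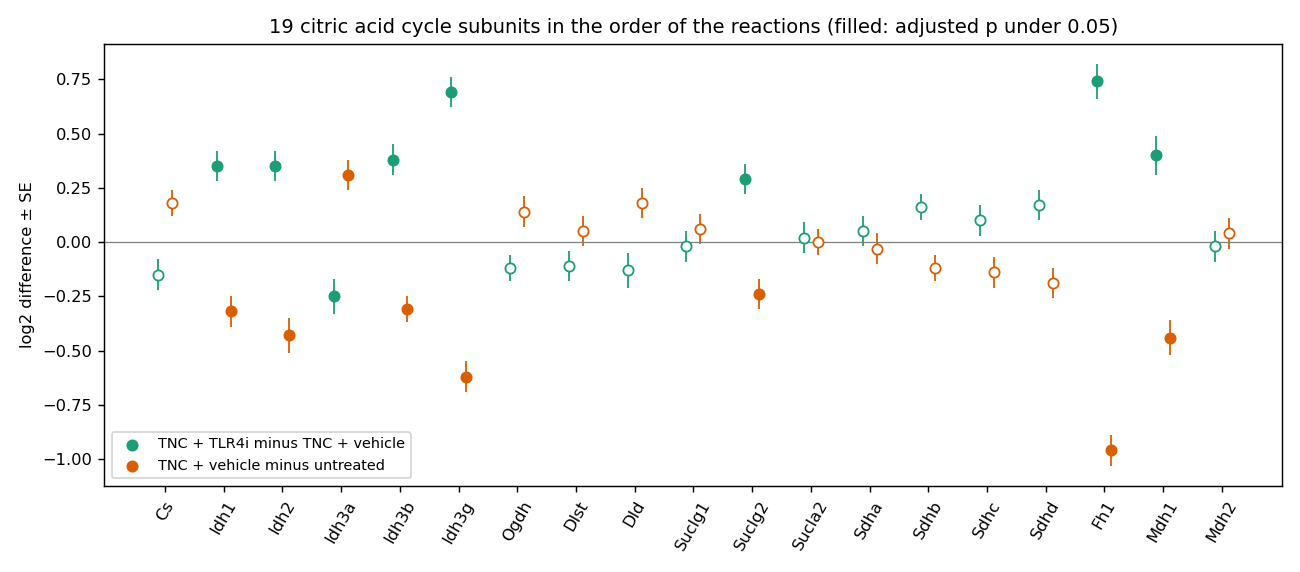
Log2 difference ± SE (y axis) of 19 cycle subunits in the order of their reactions, for TNC + TLR4i minus TNC + vehicle and for TNC + vehicle minus untreated; filled points have a limma adjusted p under 0.05. Fh1 and Idh3g show the largest differences of the 19, and Idh3a is the filled point with the opposite sign to Idh3b and Idh3g.

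Fh1, fumarase, which hydrates fumarate to malate, had the largest difference of the cycle. Its signal (1424828_a_at) was 11.39, 11.30 and 11.15 in TNC + TLR4i, 10.50, 10.55 and 10.58 in TNC + vehicle, and 11.59, 11.50 and 11.42 in untreated cells. It fell with TNC by 0.96 on the log2 scale (limma, adjusted p = 1.1e-06) and was 0.74 higher with the inhibitor than with vehicle (1.69e-05). All TNC + TLR4i arrays lay below the lowest untreated array, but the difference of -0.22 did not pass (limma, adjusted p = 0.409).

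Idh3g, a regulatory subunit of IDH3, had 11.31, 11.25 and 11.17 in TNC + TLR4i, 10.59, 10.51 and 10.56 in TNC + vehicle, and 11.25, 11.21 and 11.07 in untreated cells (1416788_a_at). Its differences of -0.62 with TNC and 0.69 with the inhibitor (limma, adjusted p = 4.61e-05 and 1.25e-05) were matched by -0.65 and 0.72 for a second probe set. With cyclic loess the first was -0.54, below 1.5-fold. By the brightest of its 3 probe sets, Idh3b, the other regulatory subunit, named after its values were seen, differed by -0.31 and 0.38 (limma, adjusted p = 0.0037 and 0.000868).

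By their brightest probe sets, the catalytic and regulatory subunits of IDH3 thus differed in opposite directions, although the Idh3a calls depended on single arrays. The Idh3a minus Idh3g signal lay between -2.00 and -1.68 in TNC + TLR4i, between -1.05 and -0.83 in TNC + vehicle and between -1.98 and -1.72 in untreated. This difference changed by 0.93 with TNC and -0.94 with the inhibitor, and the Idh3a minus Idh3b signal by 0.62 and -0.64. Each of these changes had p = 0.10 (exact permutation test), and 3 arrays a group cannot give a lower p in this test. The changes restate the directions of the single subunits. Suclg2, a subunit of succinyl-CoA ligase, and Mdh1, the cytosolic malate dehydrogenase, both named after their values were seen, were the other lower subunits with TNC, by -0.24 and -0.44 (limma, adjusted p = 0.0325 and 0.00141).

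Pyruvate enters the cycle through pyruvate dehydrogenase, which kinases (PDK) switch off and phosphatases (PDP) switch on. Of 12 measured genes of this list, 2 were higher and 4 lower with TNC, and 4 higher and 2 lower with the inhibitor (limma). The shares over all genes were 12.1% higher and 16.0% lower with TNC, and 17.1% and 11.4% with the inhibitor. Thus 2 of 12 is near the share of all genes, and 4 of 12 is above it. Pdk4 had 7.95, 7.86 and 8.09 in TNC + TLR4i, 6.74, 6.99 and 6.83 in TNC + vehicle, and 7.33, 7.30 and 7.75 in untreated cells. Its 3 groups did not overlap, with TNC + TLR4i highest.

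The differences of Pdk4 were -0.61 with TNC (limma, adjusted p = 0.00214), 1.11 with the inhibitor (1.19e-06) and 0.51 in TNC + TLR4i against untreated (0.07). The last was 0.65 with an adjusted p of 0.0124 (limma) without untreated replicate 3. The first was below 1.5-fold, at -0.46 without untreated replicate 3 and -0.55 without TNC + vehicle replicate 1. Pdp2 differed by 0.68 and -0.59, and Pdpr, a regulator of the phosphatase, by -0.60 and 0.63 (limma, adjusted p up to 0.000329). Both lay near 1.5-fold, and single arrays moved them across it: Pdp2 to 0.58 without untreated replicate 1, -0.55 without TNC + vehicle replicate 2 and -0.50 without TNC + TLR4i replicate 3, and Pdpr to -0.56 without untreated replicate 3 and -0.58 without TNC + vehicle replicate 3. Cyclic loess gave -0.57 and 0.58 for Pdpr. Its other probe sets differed by -0.40, -0.30 and -0.16 with TNC, and the last of these did not pass (limma, adjusted p = 0.204).

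Among 11 measured genes of anaplerosis and glutamine use, 0 were higher and 5 lower with TNC, and 5 higher and 0 lower with the inhibitor, with list medians of -0.22 and 0.29 against 0.01 and 0.00 over all genes. The shares of all genes were 12.1% higher and 16.0% lower with TNC, and 17.1% and 11.4% with the inhibitor. Glul, glutamine synthetase, had 11.89, 11.82 and 11.70 in TNC + TLR4i, 10.62, 10.45 and 10.39 in TNC + vehicle, and 11.93, 11.68 and 11.77 in untreated cells. TNC + vehicle was lower without overlap, by -1.31 against untreated (limma, adjusted p = 4.83e-07), and TNC + TLR4i was 1.32 higher than TNC + vehicle (1.81e-07). Got1, the cytosolic aspartate aminotransferase, differed by -0.90 and 0.95 (limma, adjusted p = 1.8e-06 and 2.45e-06). Pck2, the mitochondrial phosphoenolpyruvate carboxykinase, differed by -0.71 and 0.88 (1.9e-05 and 9.14e-06).

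Citrate export and mitochondrial carriers was the list with mostly higher genes. Of 9 measured genes, 6 were higher and 1 lower with TNC, and 1 higher and 6 lower with the inhibitor, with medians of 0.43 and -0.39. Over all genes, 12.1% were higher and 16.0% lower with TNC, and 17.1% and 11.4% with the inhibitor. The medians over all genes were 0.01 and 0.00. Slc25a12, an aspartate-glutamate carrier of the malate-aspartate shuttle, had 8.88, 8.79 and 8.83 in TNC + TLR4i, 9.80, 9.91 and 9.86 in TNC + vehicle, and 8.90, 8.79 and 8.69 in untreated cells. It differed by 1.06 and -1.02 (limma, adjusted p = 8.29e-07 and 3.36e-07).

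Slc25a10, the dicarboxylate carrier that exchanges malate or succinate for phosphate, had 9.41, 9.43 and 9.50 in TNC + TLR4i, 10.29, 10.31 and 10.40 in TNC + vehicle, and 9.62, 9.55 and 9.52 in untreated cells. It differed by 0.77 and -0.88 (limma, adjusted p = 4.98e-06 and 1.22e-06). Slc25a22, a mitochondrial glutamate carrier, differed by 0.66 and -0.56, the second passing in p (limma, adjusted p = 0.000987) but not in fold. It was -0.65 without TNC + vehicle replicate 1 and -0.61 without TNC + TLR4i replicate 3. Acss2, which makes cytosolic acetyl-CoA from acetate, differed by 0.64 and -0.71 (limma, adjusted p = 0.000114 and 1.25e-05).

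**Figure D5:**
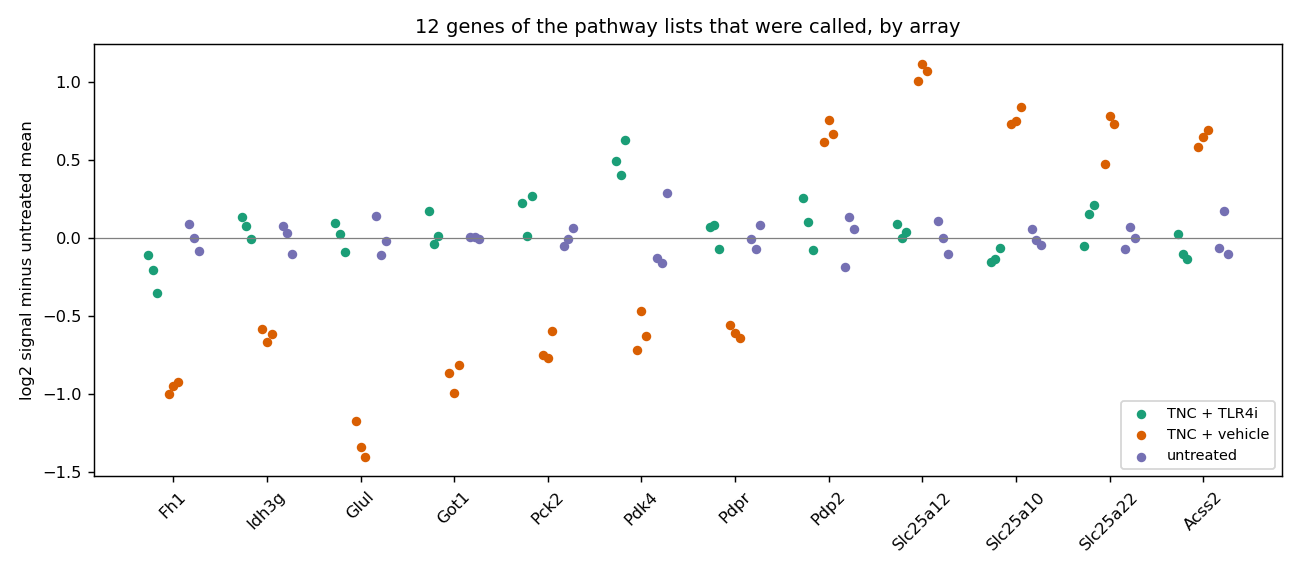
Log2 signal of each array minus the mean of the 3 untreated arrays (y axis) for the 12 genes of the pathway lists that were called in at least 1 comparison, with points coloured by group. TNC + vehicle arrays lie apart from both other groups in all 12 genes, and Pdk4 is the gene in which TNC + TLR4i lies highest above untreated. All 12 were chosen because they were called in a comparison with TNC + vehicle, so its separation follows largely from that choice.

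Of 10 measured genes of itaconate and succinate handling outside the cycle, 0 were higher and 2 lower with TNC and 2 higher and 0 lower with the inhibitor, none at 1.5-fold, with medians of -0.09 and 0.09. Over all genes, 16.0% were lower with TNC and 17.1% higher with the inhibitor, which is near 2 of 10. In TNC + TLR4i against untreated, 0 genes of any of the 5 pathway lists passed (limma).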

How the data were processed

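RNA of 9 macrophage cultures was measured on Affymetrix mouse genome arrays. The authors normalised the arrays by RMA in Chipster 3.8.0 and deposited 1 log2 value for each probe set. Quantile normalisation within RMA gives all arrays the same distribution, so a change in total RNA would not be seen. Array controls (64 of 45101 probe sets) were left out. The platform annotation gave 34945 probe sets 1 gene, 932 several and 9160 none. The comparisons used limma 3.58.1 (R 4.3.3) and the 6 arrays of both groups, two-sided, with Benjamini-Hochberg adjustment over 45037 probe sets. "Passed" means an adjusted p under 0.05, and "called" at least 1.5-fold as well. The number of arrays limits the precision.

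The members and lists were chosen with earlier results of these data known. Named genes were the 9 members, pathway-list genes called in at least 1 comparison, and the 5 genes most like Acod1. Where another gene is named, the text says so. The analysis was repeated with all arrays in 1 fit, cyclic loess, a replicate block, array medians subtracted, without dim probe sets, with trend and robust settings, array weights, means of probe sets, other thresholds, and each array left out.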

Additional observations from a re-analysis of the deposited data

How the results depend on the processing

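Acod1 kept its direction and call with TNC and with the inhibitor under all alternatives. Leaving out single arrays gave 5.83 to 6.16 and -6.44 to -6.36, and for TNC + TLR4i minus untreated -0.57 to -0.25 (limma, adjusted p = 0.0182 to 0.608). Deviations of same-numbered arrays correlated at -0.096 to 0.136, and those of differently numbered arrays at -0.116 to 0.102. These values do not show whether same-numbered arrays shared a mouse or a preparation. With the replicate block Acod1 differed by 6.01, -6.41 and -0.40, and the numbers of enzymes that differed stayed at 3, 3 and 0.

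Cycle subunits higher with TNC numbered 3 with cyclic loess, with dim probe sets left out and with trend and robust settings, 2 with means of probe sets, 0 at an adjusted p under 0.01, and 0 to 1 with single arrays left out. Those lower with the inhibitor numbered 2 with cyclic loess and with means of probe sets, 0 at an adjusted p under 0.01, and 0 to 1 with single arrays left out. With means of probe sets, 5 of the 8 enzymes differed with the inhibitor (Cs, Idh1, Idh3a, Sdha and Sdhb). Under the same setting, 483 genes were called lower with TNC, 498 higher with the inhibitor and 23 lower in TNC + TLR4i against untreated. Means of probe sets also took Pck2 (-0.56 with TNC), Pdpr (-0.37 and 0.43) and Acss2 (0.49 and -0.48) below 1.5-fold. A minimum of 2-fold left 339 genes higher and 179 lower with TNC, 187 and 377 with the inhibitor, and 2 and 6 in TNC + TLR4i against untreated. The last comparison had 20 genes lower with trend and robust settings, 22 at an adjusted p under 0.01, and 20 to 51 with single arrays left out.

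Reversals concerned values near 0 that had not passed, and their cause was not tested. With cyclic loess, Sdha differed by 0.04 with TNC and -0.04 with the inhibitor, and Glul by -0.01 in TNC + TLR4i against untreated. For that comparison, means of probe sets gave -0.03 for Ogdh and array weights -0.02 for Glul. Leaving out single arrays gave -0.07 to 0.01 for Sdha with TNC, -0.05 to 0.03 for Mdh2 with the inhibitor and, in TNC + TLR4i against untreated, -0.02 to 0.07 for Sdha, -0.02 to 0.05 for Ogdh, -0.01 to 0.06 for Mdh2, -0.05 to 0.07 for Glul, -0.12 to 0.01 for Acss2, and -0.01 to 0.09 for Slc25a12 and Got1.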
